A study of Homo sapiens with 6 samples.

Results

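The 4 arrays from PC3 cells that received an siRNA against VEGF-C or against its co-receptor neuropilin-2 were compared with the 2 arrays from cells that received scrambled siRNA, and the genes described are those on which all 4 targeting siRNA arrays lay on the same side of both scrambled arrays. PC3 is an established human prostate cancer line that lacks functional p53. For all 6 samples the cells were kept in RPMI medium with 10% serum and were collected 72 h after transfection, and 6 ug of total RNA went into labelling for an Affymetrix HG-U133 Plus 2.0 array. The labels give 2 arrays each for scrambled siRNA, VEGF-C siRNA and NRP-2 siRNA. Each target was depleted with 1 pool of siRNAs, the NRP-2 pool from Santa Cruz Biotechnology and the VEGF-C pool from Dharmacon, so target and supplier cannot be told apart. The arrays of a group are listed as separate samples with nothing to show separate cultures, so p-values cover the spread between these samples alone, and that spread may be technical. Of 11131 genes tested, 2467 met the rule: 1224 stood above both scrambled arrays (11.0%) and 1243 stood below both (11.2%). The arrays of the other 8664 genes overlapped. There are 15 splits of 6 arrays into 4 and 2, so values in random order would put about 1 gene in 15 on each side.

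VEGF-C is a secreted growth factor that signals through the receptor tyrosine kinases VEGFR-3 and VEGFR-2 and is best known for the growth of lymphatic vessels. Neuropilin-2 has a short cytoplasmic tail, binds VEGF-C and class 3 semaphorins, and presents them to VEGF receptors and plexins. The series concerns autophagy in cancer, the route by which cells enclose their own contents in autophagosomes and degrade them in lysosomes. LAMP2, a heavily glycosylated protein of the lysosomal membrane, and WDFY1, a FYVE and WD40 domain protein that binds phosphatidylinositol 3-phosphate on early endosomes, were described whatever their values.

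Levels are log2 values as the authors deposited them, and a difference is the mean of the VEGF-C and NRP-2 siRNA group means minus the scrambled mean on that scale, with its standard error (SE) from limma, a linear model that pools information on the spread across genes. The gap is the distance between the nearest targeting siRNA array and the nearest scrambled array. No gene was called at limma's adjusted p under 0.05 in the pooled comparison (0 of 11131, 0%), where the lowest adjusted p was 0.274, while the unadjusted p was under 0.05 for 1431 genes (12.9%), of which 667 were higher and 764 lower with the targeting siRNAs. If no gene differed, about 557 of the 11131 would be expected at an unadjusted p under 0.05. Treating the 4 targeting siRNA arrays as 1 group in limma also called 0 genes, with 1009 at an unadjusted p under 0.05. An exact two-sided rank-sum test of 4 against 2 arrays cannot give a p below 0.133. The values below are therefore descriptions of these 6 arrays: "above" and "below" mean only that the arrays did not overlap. The array medians lay between log2 3.0 and 3.07.

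Most of the gaps were narrow. Among the 1224 genes above, the median gap was 0.09, the 90th percentile was 0.32, and 52 genes were apart by at least 0.5. Among the 1243 genes below, the corresponding values were 0.10, 0.32 and 41. A gap of at least 1 was seen for WDFY1 above and for LINC01128 and HTR7P1 below. The median difference was 0.34 for the genes above, with a range from 0.02 to 1.89, and -0.39 for the genes below, with a range from -1.95 to -0.02. Close to the limit the rule separates almost equal values: PHPT1 was included with a gap of 2e-04 above and RBMX2 with 1e-04 below, whereas MOB2 was left out at -0.00018 and ARID5B at -2e-04. In all, 412 genes above and 376 below had a gap under 0.05, while 682 and 640 genes lay outside the rule by less than 0.05. The filter required a mean of log2 4 over the 6 arrays; 6 genes above had a scrambled mean under 4 and 12 genes below had a targeting siRNA mean under 4, so these passed through their high group.

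Other probe sets of the same genes gave a second reading from the same arrays. Of the 1224 genes above, 568 had another named probe set past the filter. In 203 of these (35.7%) the next brightest probe set also stood above both scrambled arrays, beside 474 of all 5300 second probe sets (8.94%). In 18 it stood below both. Of the 1243 genes below, 671 had another probe set, which stood below in 284 (42.3%) beside 650 of 5300 (12.3%) and above in 11. Other probe sets are described below for some genes only, so a gene without such mention may also have probe sets that overlap.

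Each targeted transcript was low only with its own siRNA, so neither met the rule. VEGFC stood at 11.81 and 11.80 on the scrambled arrays, 8.46 and 7.27 on the VEGF-C siRNA arrays and 11.99 and 11.67 on the NRP-2 siRNA arrays. The VEGF-C siRNA arrays were thus far below all others, and the NRP-2 siRNA arrays lay on either side of the scrambled ones. NRP2 stood at 4.77 and 4.92 with scrambled siRNA, 5.51 and 6.01 with VEGF-C siRNA and 3.41 and 2.81 with NRP-2 siRNA. Its only probe set past the filter was thus dim, and the siRNA groups lay on opposite sides of the scrambled arrays. Among the 9 measured VEGF ligands, VEGF receptors and neuropilins, none stood above and 1 stood below: NRP1, the related co-receptor neuropilin-1, at 14.69 and 14.89, then 14.54 and 14.29, then 13.94 and 14.51 in the same order of groups, a difference of -0.47 (SE 0.20, limma's adjusted p = 0.403). The list's median difference was -0.03, beside 0.00 over all genes tested.

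Semaphorins are ligands, and plexins the signalling receptors, of the other pathway that uses neuropilin-2. Of 19 measured members, 4 stood above (PLXNA2, PLXNA4, PLXND1 and SEMA6D) and 4 below (SEMA3C, SEMA3E, SEMA4A and SEMA5A), with a median difference of 0.01. SEMA3C, a secreted class 3 semaphorin and the brightest of those named here, stood at 13.86 and 13.87 on the scrambled arrays, 12.85 and 13.21 with VEGF-C siRNA and 13.38 and 13.43 with NRP-2 siRNA. All 4 targeting siRNA arrays were lower by at least 0.43, and a second SEMA3C probe set was below with a difference of -0.90 beside -0.65 for the first. SEMA6D, a membrane-anchored semaphorin, stood at 5.82 and 5.65, then 6.09 and 6.11, then 6.80 and 6.63, a difference of 0.67. SEMA4A (-0.88, SE 0.26) and SEMA5A (-1.07, SE 0.32), both transmembrane semaphorins, had gaps of 0.21 each, while the plexin receptors PLXNA4 (0.36) and PLXNA2 (0.27) had gaps of 0.16 and 0.12.

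WDFY1 had the widest gap of the genes above. It stood at 10.10 and 10.43 on the scrambled arrays, 11.84 and 11.59 on the VEGF-C siRNA arrays and 12.04 and 11.83 on the NRP-2 siRNA arrays. Every targeting siRNA array was at least 1.16 above both scrambled arrays, and the difference of 1.56 (SE 0.15, limma's adjusted p = 0.274) is 2.95-fold on the linear scale. Its second probe set gave 1.42 with a gap of 0.92. LAMP2 stood at 12.20 and 12.58 on the scrambled arrays, 13.32 and 13.54 with VEGF-C siRNA and 14.00 and 13.78 with NRP-2 siRNA, a difference of 1.27 (SE 0.16, limma's adjusted p = 0.274) with a gap of 0.75. This held for its brightest probe set. The other 3 LAMP2 probe sets overlapped, with differences of 0.12, 0.07 and 0.96, the last at 0.02 for VEGF-C siRNA and 1.89 for NRP-2 siRNA. Which LAMP2 transcripts each probe set reads was not tested.

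**Figure D1:**
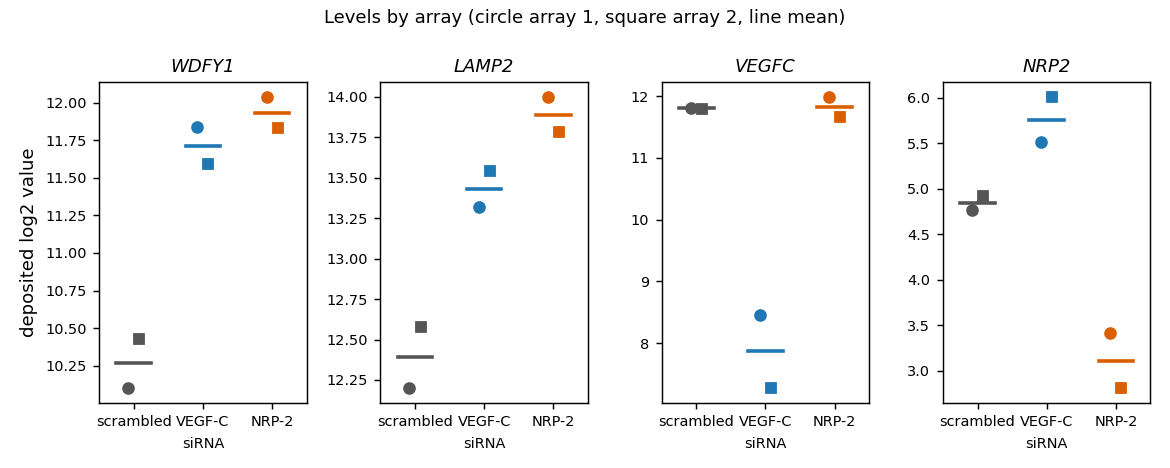
Deposited log2 values of WDFY1, LAMP2, VEGFC and NRP2 (vertical axes, which differ in scale and do not start at 0) by siRNA group, with circles for array 1, squares for array 2 and a line at the mean of the 2 arrays. WDFY1 and LAMP2 are above both scrambled arrays with either siRNA, whereas VEGFC and NRP2 are low only with their own siRNA.

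Beside WDFY1, the genes with the widest gaps above included nuclear, death receptor and kinase genes. LMNB1, which encodes lamin B1 of the nuclear lamina, stood at 9.55 and 9.45 on the scrambled arrays, 11.14 and 10.48 with VEGF-C siRNA and 11.91 and 10.86 with NRP-2 siRNA. FAS, the death receptor for FAS ligand, stood at 7.23 and 7.10, then 8.14 and 8.44, then 9.32 and 8.24. DYRK2, a dual-specificity protein kinase, stood at 7.5 and 7.26, then 8.80 and 9.01, then 9.12 and 8.40. The groups were apart by 0.93, 0.92 and 0.91 in turn. All 4 FAS probe sets past the filter stood above, with differences from 1.20 to 1.54, as did 3 of 4 for DYRK2.

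ANXA1, a phospholipid-binding protein that limits inflammation, stood at 12.45 and 12.60 on the scrambled arrays, 13.76 and 13.75 with VEGF-C siRNA and 13.51 and 13.46 with NRP-2 siRNA. RELL1, a relative of the TNF receptor family member RELT, stood at 8.03 and 7.65, then 8.97 and 9.09, then 9.36 and 8.95. TRHDE, the ectoenzyme that degrades thyrotropin-releasing hormone, stood at 7.93 and 7.97, then 8.89 and 8.79, then 9.78 and 9.68. In all 3 genes the arrays of a group lay close together compared with the distance to the scrambled arrays, and in TRHDE the NRP-2 siRNA arrays were clearly the highest. The remaining genes of the 12 widest gaps above were FBXL12, an F-box substrate adaptor of a ubiquitin ligase (difference 1.08, gap 0.87), DRAM1, a lysosomal membrane protein that promotes autophagy (1.23, gap 0.82), SH3D19, an SH3 domain adaptor (1.32, gap 0.82), GEMIN5, the snRNA-binding subunit of the SMN complex (0.98, gap 0.79), and C4orf46 (1.32, gap 0.78).

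The genes with the widest gaps below included noncoding transcripts, a kinase and adhesion genes. LINC01128, a long noncoding RNA, stood at 7.25 and 6.86 on the scrambled arrays, 5.57 and 4.28 with VEGF-C siRNA and 4.90 and 5.66 with NRP-2 siRNA, a difference of -1.95 (SE 0.42, limma's adjusted p = 0.293). Its second probe set past the filter overlapped, with a difference of -0.22. HTR7P1, a transcribed pseudogene of a serotonin receptor, stood at 6.72 and 6.16, then 5.03 and 5.13, then 4.48 and 5.06. FRK, a tyrosine kinase related to Src, stood at 7.75 and 8.18, then 6.54 and 6.34, then 5.87 and 6.87. Both scrambled arrays were the highest in each of these genes, although a second, dim FRK probe set showed no such distance (difference -0.03).

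CXADR, the coxsackievirus and adenovirus receptor of epithelial junctions, was the brightest gene among the 12 widest gaps below. It stood at 12.12 and 12.46 with scrambled siRNA, 11.23 and 11.37 with VEGF-C siRNA and 10.23 and 11.11 with NRP-2 siRNA. All 3 CXADR probe sets past the filter stood below, with differences of -1.30, -1.31 and -1.61. PCDHB7 and PCDHB14 are beta protocadherins of the same gene cluster, cell adhesion proteins of the cadherin family. PCDHB7 stood at 6.35 and 6.89, then 4.67 and 5.21, then 4.57 and 5.52. PCDHB14 stood at 7.51 and 7.61, then 6.06 and 6.11, then 5.50 and 6.76. Their differences were -1.63 (SE 0.33) and -1.46 (SE 0.35), and members of this cluster are similar in sequence, so cross-hybridisation between them was not tested.

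The other genes of the 12 widest gaps below were NETO1, an auxiliary subunit of glutamate receptors (difference -1.74, gap 0.87), MIB2, a ubiquitin ligase for Notch ligands (-1.16, gap 0.82), RCBTB1 (-1.24, gap 0.70), ACER2, a ceramidase of the Golgi (-1.15, gap 0.69), MACROD2, which removes ADP-ribose from proteins (-1.47, gap 0.67), and CCND2, cyclin D2 (-1.35, gap 0.67). The second MACROD2 probe set past the filter also stood below, with a difference of -2.16, whereas the second MIB2 probe set overlapped at -0.05. CCND2 was dim, at 5.93 and 5.54 with scrambled siRNA, 4.83 and 4.88 with VEGF-C siRNA and 3.53 and 4.32 with NRP-2 siRNA.

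**Figure D2:**
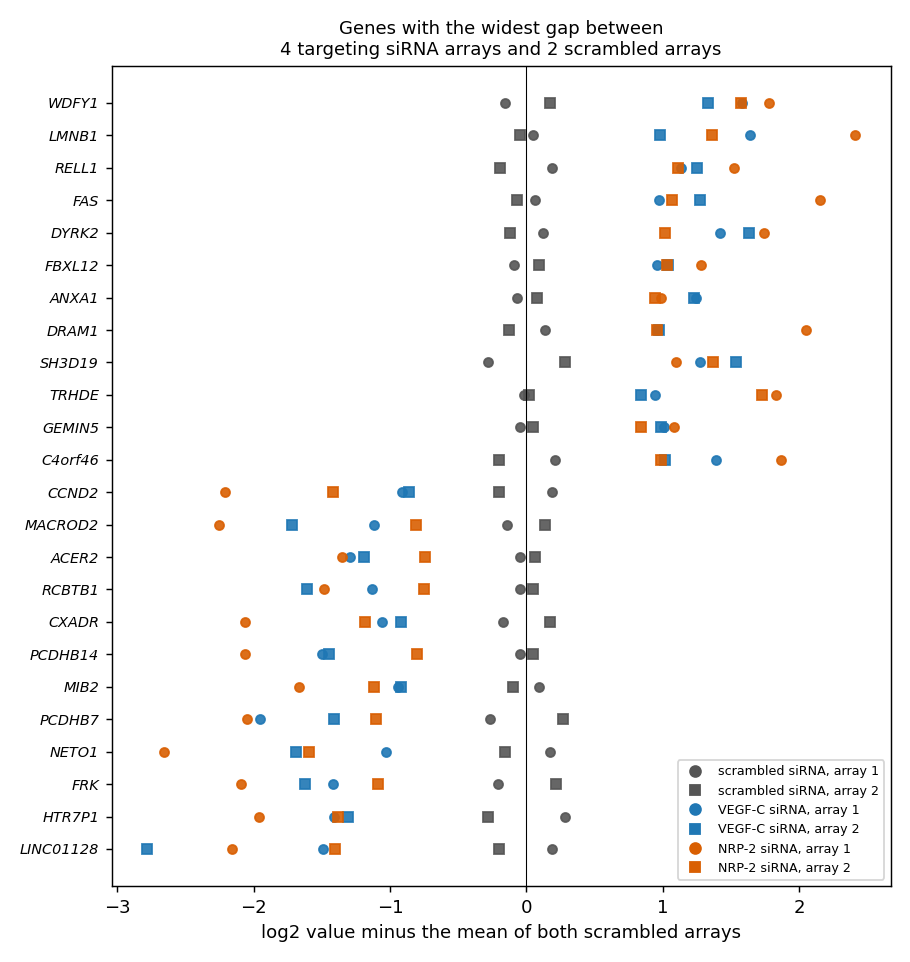
The 12 genes with the widest gap above and the 12 with the widest gap below (rows). The horizontal axis is the log2 value of each array minus the mean of both scrambled arrays, with grey for scrambled, blue for VEGF-C and orange for NRP-2 siRNA, circles for array 1 and squares for array 2; the grey points stay near 0, and in most rows the first NRP-2 siRNA array is the farthest from them.

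Gene lists written from general knowledge were read by their counts beside the shares over all genes tested, 11.0% above and 11.2% below. The comparisons of VEGF-C and of NRP-2 siRNA with scrambled siRNA share the same 2 scrambled arrays, so a level that is high or low on those arrays enters both. Leaving out a single array, which makes non-overlap easier, moved the count above or below by more than 1.5 times in 28 of the 30 lists, markers included. On the endosome, phosphatidylinositol 3-phosphate is made by PIK3C3 with PIK3R4 and turned over by PIKFYVE and the myotubularins. Of 42 measured genes for these enzymes and their effectors, 7 stood above and 7 below, with a median difference of 0.00. Next to WDFY1, the widest gap above belonged to MTMR6, a myotubularin phosphatase. It stood at 10.54 and 10.51 on the scrambled arrays, 11.53 and 11.24 with VEGF-C siRNA and 11.39 and 11.42 with NRP-2 siRNA, so that its 4 targeting siRNA values lay within a narrow band 0.70 or more above scrambled. A dimmer second MTMR6 probe set overlapped (difference 0.25). RBSN, a RAB effector of early endosomes, was above by a gap of 0.08. The kinases PIK3R4 (-0.50, gap 0.10) and PIK3C2B (-0.33, gap 0.15) and the early endosome GTPase RAB5B (-0.30, gap 0.17) stood below.

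Of 47 measured autophagy genes, 8 stood above (17%) and 4 below (8.51%), with a median difference of 0.03. EPG5, a tether for the fusion of autophagosomes with lysosomes, had the widest gap of this list: it stood at 8.56 and 8.39 on the scrambled arrays, 9.71 and 9.55 with VEGF-C siRNA and 9.23 and 8.86 with NRP-2 siRNA. The VEGF-C siRNA arrays were the highest, with a difference between the siRNAs of -0.59 (95% confidence interval -1.02 to -0.15, limma's adjusted p = 0.186). A second EPG5 probe set of nearly the same level overlapped, at 0.16 (0.35 for VEGF-C and -0.02 for NRP-2 siRNA). ATG12, the ubiquitin-like protein that is joined to ATG5, stood at 12.64 and 12.98, then 13.23 and 13.48, then 13.33 and 13.30. Its difference was 0.53 (SE 0.15) with a gap of 0.25. The dimmer ATG12 probe sets overlapped, with differences of 0.49 and 0.33. ATG5, ATG3 (the E2-like enzyme for LC3), ATG101 (a subunit of the ULK1 complex), ULK2, WIPI1 and RUBCN were the others above. Those below were AMBRA1 (-0.18), ATG4D (-0.27), TOLLIP (-0.20) and NBR1, with gaps of at most 0.08. Second AMBRA1 and TOLLIP probe sets past the filter overlapped, at 0.01 and -0.20.

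Among lysosomal membrane proteins and hydrolases, more members stood below than above, where LAMP2 stood, and the arrays of 20 members overlapped. Of 33 measured members, 3 stood above (LAMP2, GLA and SCARB2) and 10 below, 30.3% beside 11.2% over all genes. The 10 were the hydrolases and activators ACP2, ASAH1, CTSD, CTSZ, GAA, GUSB, MAN2B1, PSAP and SMPD1 and the calcium channel MCOLN1. ACP2, lysosomal acid phosphatase, stood at 9.46 and 9.49 with scrambled siRNA, 8.82 and 9.12 with VEGF-C siRNA and 8.48 and 8.87 with NRP-2 siRNA. CTSZ, cathepsin Z, stood at 10.74 and 10.77, then 10.11 and 10.38, then 10.48 and 10.39. MAN2B1, an alpha-mannosidase, stood at 10.71 and 10.36, then 10.03 and 10.11, then 10.01 and 10.03. These differences were modest, at -0.65, -0.41 and -0.49 with SEs of 0.16, 0.12 and 0.13, and the list's median was -0.11. Against them, GLA, alpha-galactosidase A, had a difference of 0.75 with a gap of 0.26, and SCARB2, which carries glucocerebrosidase to the lysosome, 0.29 with a gap of 0.05. The other SCARB2 probe sets past the filter overlapped, at 0.28 and 0.18. The mean over the 33 lysosomal genes was 10.33 on both scrambled arrays, 10.17 and 10.32 with VEGF-C siRNA and 10.29 and 10.24 with NRP-2 siRNA. Of 14 measured vacuolar ATPase genes, none stood above and 2 below, the accessory subunits ATP6AP2 (-0.36, gap 0.26) and ATP6AP1 (-0.30, gap 0.16).

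TFEB and its relatives bind a palindrome in the promoters of many lysosomal genes. Promoter windows from RefSeq (GRCh38.p14, 250 bases before to 50 after a transcript start of each gene) were matched for 9189 of the 11131 genes and searched for its core TCACGTGA, which reads the same on both strands. The core was present in 188 of 9189 promoters (2.05%), in 37 of 1016 promoters of the genes below (3.64%) and in 18 of 1018 of the genes above (1.77%). Of the 27 lysosomal list members with a window, 4 held it, LAMP1 and CTSA, whose arrays overlapped, among them. Among the 8 lysosomal members below with a promoter here, GAA, acid alpha-glucosidase, and MCOLN1 held it. These stretches are shown because they are the lysosomal genes below that carry the core; each is 60 bases on the plus strand, at chr17:80101478-80101537 for GAA and chr19:7522556-7522615 for MCOLN1, with the first match in capitals.

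GAA: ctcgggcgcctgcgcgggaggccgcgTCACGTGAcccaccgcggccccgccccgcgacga

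MCOLN1: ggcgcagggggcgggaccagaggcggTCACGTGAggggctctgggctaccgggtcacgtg

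GAA stood at 9.40 and 9.56 on the scrambled arrays, 9.09 and 9.11 with VEGF-C siRNA and 8.71 and 9.19 with NRP-2 siRNA, and MCOLN1 was lower by a smaller distance (difference -0.20, gap 0.11). A match to these letters is a description of the window, and binding was not measured.

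The kinase complex mTORC1 is activated on the lysosome by amino acids through the Rag GTPases and restrained by the TSC complex. Of 34 measured members, 4 stood above (LAMTOR3, TBC1D7, RRAGC and DEPDC5) and 4 below (RRAGB, TSC1, CASTOR1 and RPTOR), near the background in each direction, with a median difference of -0.03. RRAGB, a Rag GTPase, stood at 8.73 and 9.04 with scrambled siRNA, 8.22 and 8.32 with VEGF-C siRNA and 7.84 and 8.31 with NRP-2 siRNA. TSC1, hamartin, stood at 9.17 and 9.28, then 8.71 and 8.88, then 8.04 and 8.61. Both were at least 0.29 below scrambled on every targeting siRNA array, with differences of -0.71 (SE 0.18) and -0.67 (SE 0.19). CASTOR1, an arginine sensor, had -0.42 with a gap of 0.23. LAMTOR3, a Ragulator subunit, had 0.46 with a gap of 0.14. The gaps of TBC1D7, a subunit of the TSC complex, and RRAGC were 0.07 and 0.04. A second LAMTOR3 probe set overlapped at 0.32 (-0.05 for VEGF-C and 0.68 for NRP-2 siRNA), and a second CASTOR1 probe set overlapped at -0.46.

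Apoptosis regulators were among the lists with the largest share above: 11 of 32 measured members (34.4%) beside 11.0% over all genes, with 2 below (6.25%) and a median difference of 0.13. They included 3 death receptors (FAS, TNFRSF10A and TNFRSF10B), their adaptor FADD, the inhibitors CFLAR and BIRC2, and the BCL2 family genes BAD, BCL2A1, BIK and BMF, with cytochrome c (CYCS). BIK, a BH3-only protein that promotes apoptosis, stood at 8.95 on both scrambled arrays, 9.80 and 9.87 with VEGF-C siRNA and 9.72 and 9.51 with NRP-2 siRNA, a difference of 0.78 (SE 0.11, limma's adjusted p = 0.274). FADD stood at 10.91 and 10.89, then 11.35 and 11.32, then 11.55 and 11.08. TNFRSF10B, a receptor for TRAIL, stood at 11.69 on both scrambled arrays, then 11.79 and 12.21, then 12.42 and 12.08, while its 2 dimmer probe sets past the filter overlapped (-0.05 and -0.07). FAS and BIK were thus apart by 0.92 and 0.56, the other 2 by 0.17 and 0.10. The genes below were TNFSF10, which encodes TRAIL itself (-0.68, gap 0.03), and the initiator caspase CASP9 (-0.34, gap 0.24). With the mean of all named probe sets past the filter in place of the brightest, 8 of 32 stood above.

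Of 19 measured p53 target genes, in a line without functional p53, 3 stood above (FAS, TNFRSF10B and the nuclease AEN) and 3 below. MDM2, the ubiquitin ligase for p53, stood at 11.22 and 11.02 with scrambled siRNA, 10.80 and 9.87 with VEGF-C siRNA and 10.42 and 10.93 with NRP-2 siRNA, with a gap of only 0.09. TP53I3 (-0.48) and ZMAT3 (-0.56) were the others below, and the list's median difference was 0.12.

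NF-kB is held in the cytoplasm by IkB proteins, and several of its target genes encode its own subunits and inhibitors. Of 24 measured inflammatory cytokines and NF-kB targets, 3 stood above (12.5%), 1 below, and 21 had a positive difference, with a median of 0.42. The list mean was 9.16 and 8.86 on the scrambled arrays, 9.69 and 9.88 with VEGF-C siRNA and 9.68 and 8.92 with NRP-2 siRNA, so the second NRP-2 siRNA array lay between the scrambled ones. Without the first scrambled array 14 genes stood above and without the second NRP-2 siRNA array 13. The 3 above encode a subunit and inhibitors of the pathway. NFKBIA, which encodes IkB-alpha, stood at 10.87 and 11.07 on the scrambled arrays, 11.45 on both VEGF-C siRNA arrays and 12.05 and 11.44 with NRP-2 siRNA. TNFAIP3, the ubiquitin-editing inhibitor A20, stood at 8.69 and 8.98, then 9.23 and 9.66, then 9.66 and 9.21. NFKB1, the p105 and p50 subunit, stood at 8.44 and 8.56, then 9.05 and 8.74, then 8.78 and 8.74. All 3 were apart, by 0.36, 0.22 and 0.18. TNFRSF11B, osteoprotegerin, a decoy receptor for RANKL and TRAIL, was below, at 9.98 and 10.47, then 8.39 and 9.16, then 8.71 and 9.67. Its difference was -1.24 (SE 0.36, limma's adjusted p = 0.336). A dimmer second TNFRSF11B probe set overlapped, with a difference of -0.66.

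The NF-kB motif GGG, any 2 bases, then TTTCC, searched on both strands, was found in 204 of 9189 promoter windows (2.22%), in 10 of 19 windows of this list, in 21 of 1018 of all genes above (2.06%) and in 16 of 1016 of all genes below (1.57%). The windows of NFKBIA, NFKB1 and TNFAIP3 all held it and are shown because these are the list's members above. The stretches are 60 bases each at chr14:35404796-35404855 on the minus strand, chr4:102501285-102501344 on the plus strand and chr6:137867167-137867226 on the plus strand, given 5′ to 3′ on the gene's strand with the first match in capitals.

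NFKBIA: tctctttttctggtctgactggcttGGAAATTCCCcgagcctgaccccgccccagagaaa

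NFKB1: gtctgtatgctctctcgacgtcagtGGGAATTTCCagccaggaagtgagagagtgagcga

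TNFAIP3: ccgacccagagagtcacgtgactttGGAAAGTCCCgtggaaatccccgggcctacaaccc

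The matches lie 81, 49 and 67 bases before the transcript start on which each window is set, in that order; for TNFAIP3 the RefSeq gene span begins further upstream, so its match lies inside that span. In NFKBIA and TNFAIP3 the letters shown are the reverse complement of the motif, and the TNFAIP3 stretch also holds the core TCACGTGA outside the capitals.

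Proteasome subunits had the largest share above of any list: 11 of 27 measured (40.7%) and none below. They were the core subunits PSMA1, PSMA5, PSMA7, PSMB1, PSMB3 and PSMB6, the ATPases PSMC1 and PSMC2, and the lid subunits PSMD6, PSMD11 and PSMD14. The distances were small. PSMD14, the deubiquitinase of the lid, stood at 12.66 and 12.55 with scrambled siRNA, 13.15 and 13.09 with VEGF-C siRNA and 13.33 and 12.88 with NRP-2 siRNA. PSMB3 stood at 12.04 on both scrambled arrays, then 12.23 and 12.36, then 12.67 and 12.24. The differences were 0.51 (SE 0.15) for PSMD14, 0.34 (SE 0.15) for PSMB3 and 0.25 (SE 0.11) for PSMA7, and the list's median was 0.15. The mean over the 27 genes was 12.51 and 12.45 on the scrambled arrays, 12.66 on both VEGF-C siRNA arrays, 12.72 on the first and 12.49 on the second NRP-2 siRNA array, so the second NRP-2 siRNA array lay between the scrambled ones. Without that array 17 of 27 stood above, and without the first scrambled array 18, where fewer arrays make it easier for groups not to overlap.

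Genes of cell division had large differences but overlapping arrays. Of 45 measured genes of G2 and mitosis, 4 stood above (8.89%) and none below, although 45 of 45 had a positive difference, with a median of 1.19. The scrambled arrays themselves differed: the list mean was 10.07 on the first and 8.42 on the second, beside 10.92 and 10.21 with VEGF-C siRNA and 10.81 and 9.73 with NRP-2 siRNA. The first array of each group was the higher, by 1.65, 0.71 and 1.09. Without the first scrambled array 45 genes stood above and the median difference was 2.01, and without the second scrambled array the median was 0.34. Without the second NRP-2 siRNA array 35 stood above. MKI67, the proliferation antigen Ki-67, shows the pattern, at 8.38 and 6.33 with scrambled siRNA, 9.94 and 8.79 with VEGF-C siRNA and 9.83 and 8.42 with NRP-2 siRNA, a gap of 0.05 beside a difference of 1.89 (SE 0.72). CENPE, a kinetochore motor, had a difference of 1.10 (gap 0.21), CDC25B, a phosphatase that activates cyclin-dependent kinases, 0.56 (gap 0.05), and ECT2, an exchange factor for cytokinesis, was the fourth. The part of this array-to-array variation in the other genes above was not tested.

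Of 46 measured genes of S phase and DNA replication, 10 stood above (21.7%) and none below, with a median difference of 0.58. CDC6, which loads the MCM helicase on origins, stood at 7.5 and 6.88 with scrambled siRNA, 9.33 and 8.45 with VEGF-C siRNA and 8.88 and 7.73 with NRP-2 siRNA, and both of its probe sets were above. RFC2, a clamp loader subunit, stood at 8.95 and 8.96, then 9.57 and 9.27, then 10.19 and 9.27. ORC6, an origin recognition subunit, stood at 10.30 and 9.44, then 10.84 and 10.60, then 11.29 and 10.49. The second array was again the lower one in each targeting siRNA group. The list mean was 9.06 and 8.67, then 9.74 and 8.94, then 10.40 and 9.13, so the second VEGF-C siRNA array lay between the scrambled arrays. Without the first scrambled array 28 of 46 stood above, without the second VEGF-C siRNA array 26 and without the second NRP-2 siRNA array 18.

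E2F factors bind promoters of replication genes. One of the letters TTTCCCGC or TTTGGCGC, on either strand, was present in 340 of 9189 promoter windows (3.7%), in 15 of 39 windows of the S phase list and in 3 of its 9 members above with a window, CDC6, GINS1 and MCM7. The stretch of CDC6, at chr17:40287860-40287919 on the plus strand, is shown because CDC6 has the largest difference of the named members of this list, with the match in capitals.

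CDC6: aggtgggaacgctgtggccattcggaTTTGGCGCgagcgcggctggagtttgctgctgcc

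The match begins at base 8 of the transcript, counted from the start on which the window is set. Over all genes above, 44 of 1018 windows (4.32%) held one of these motifs, and over all genes below 29 of 1016 (2.85%).

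**Figure D3:**
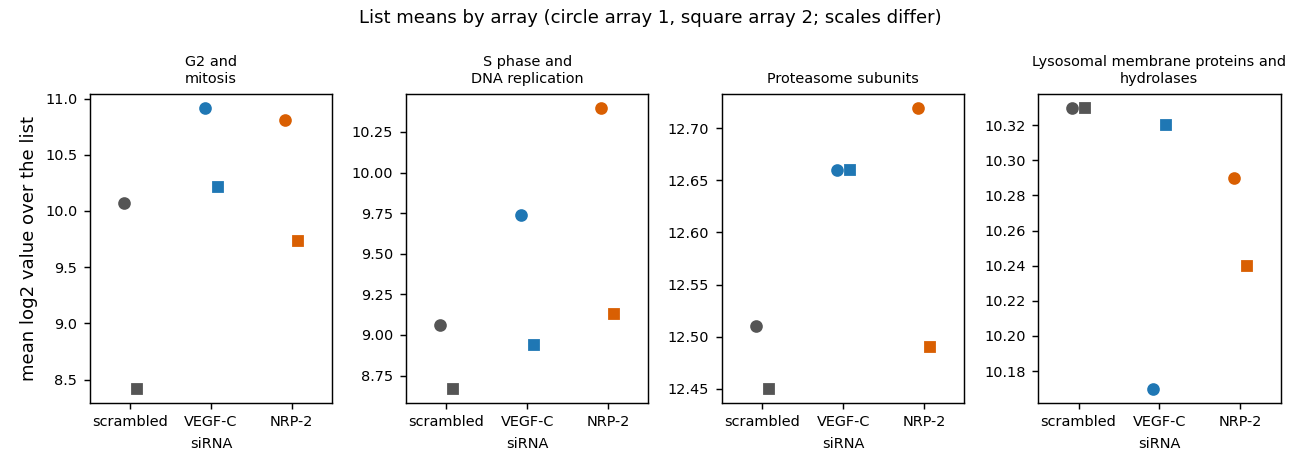
Mean deposited log2 value over the measured members of 4 gene lists (vertical axes, which differ in scale and do not start at 0) on each array, by siRNA group, with circles for array 1 and squares for array 2. The G2 and mitosis mean spans 8.42 to 10.07 within the scrambled group, wider than within either targeting siRNA group, while the proteasome and lysosomal means span far less.

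Of 28 measured genes of the EGF and ERBB pathway and its output, 4 stood above (14.3%, beside 11.0% over all genes) and 5 below (17.9%, beside 11.2%), 19 overlapped, and the median difference was 0.05. ERBB3, the kinase-impaired receptor for neuregulins, stood at 11.99 and 12.42 with scrambled siRNA, 11.50 and 11.49 with VEGF-C siRNA and 10.33 and 11.54 with NRP-2 siRNA. ERBB2, its partner, stood at 10.14 and 10.34, then 9.79 and 9.76, then 9.50 and 9.95. SPRY1, a feedback inhibitor of receptor tyrosine kinases, stood at 11.20 and 11.24, then 10.53 and 10.54, then 10.55 and 10.94. The groups were apart by 0.46, 0.19 and 0.26, and the inhibitors SPRED1 and SPRED2 were also below. FOSL1, an AP-1 subunit, had a difference of 0.71 (SE 0.16, gap 0.35), MYC 0.58 (SE 0.20, gap 0.07) and the ligand EGF 0.67 (SE 0.16, gap 0.05), with JUN as the other member above. For EGF the distance was mainly with VEGF-C siRNA, at 1.05 against 0.30 with NRP-2 siRNA.

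Among 30 measured integrin and basement membrane genes, 1 stood above and 4 below, with a median difference of -0.11. LAMC1, the laminin gamma-1 chain, stood at 9.0 and 9.5 with scrambled siRNA, 10.76 and 10.21 with VEGF-C siRNA and 11.02 on both NRP-2 siRNA arrays, a difference of 1.5 (SE 0.22, limma's adjusted p = 0.274). The other LAMC1 probe set past the filter went the opposite way, with a difference of -0.42 and a gap of 0.05 below, so the direction of this gene depends on the probe set. NID1, which links laminin to collagen (-0.63), LAMB1 (-0.36), AGRN (-0.25) and ITGA2 were below. Of 20 keratins and annexins, 3 stood above: ANXA1, ANXA5 with a gap of 0.02, and KRT75, a keratin of hair follicles. KRT75 stood at 7.31 and 7.20, then 8.78 and 8.58, then 7.95 and 8.0, highest with VEGF-C siRNA. Of 23 TGF-beta response and EMT genes, 1 stood above, the repressor of E-cadherin ZEB1 (0.42, gap 0.12), and 1 below, ID1 (-0.38, gap 0.06).

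Stress pathways gave mixed counts. Of 27 measured NRF2 and oxidative stress genes, 6 stood above (22.2%), namely GPX2, KEAP1, NQO1, PRDX1, TALDO1 and TKT, and 2 below, EPHX1 and GSR. GSR, glutathione reductase, stood at 11.87 and 11.95 with scrambled siRNA, 10.90 and 11.29 with VEGF-C siRNA and 9.28 and 10.56 with NRP-2 siRNA, a difference of -1.40 (SE 0.36, limma's adjusted p = 0.325) with a gap of 0.58. A second GSR probe set overlapped at -0.56. GPX2, a glutathione peroxidase, was above by a gap of 0.22, PRDX1 by 0.15 and TKT by 0.10. Of 23 unfolded protein response genes, 3 stood above and none below. MANF, a secreted endoplasmic reticulum stress protein, stood at 11.82 and 11.69, then 12.20 and 12.31, then 12.29 and 12.26, alike with both siRNAs, while SEC61B and EIF2AK3 had gaps of 0.02 each. Of 38 genes of the integrated stress and amino acid response, none stood above and only LARS1 below (gap 0.03); VEGF-C siRNA gave a median difference of 0.33 over the list and NRP-2 siRNA one of -0.34.

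Interferon-stimulated genes had 4 of 50 above (8%) and none below, where the median difference for VEGF-C siRNA was 0.34 and that for NRP-2 siRNA -0.19. ISG20, an exonuclease, stood at 10.19 and 10.35 with scrambled siRNA, 10.99 and 11.15 with VEGF-C siRNA and 10.64 and 11.09 with NRP-2 siRNA. IRF1, a transcription factor of the pathway (0.50, gap 0.18), IFITM2 (0.29, gap 0.08) and IFITM3 were the others. A second IRF1 probe set of nearly the same level overlapped, at -0.04 (0.30 for VEGF-C and -0.38 for NRP-2 siRNA). Small RNA processing is the machinery that siRNAs use: of 17 measured genes, 3 stood above and 4 below. DICER1, the ribonuclease that makes small RNAs, met the rule narrowly, at 10.50 and 10.69, then 8.13 and 9.10, then 10.42 on both NRP-2 siRNA arrays, so the distance was almost all with VEGF-C siRNA (-1.98 against -0.18). AGO1, an Argonaute, had -0.55 (gap 0.26) and the GW182 protein TNRC6B -0.70 (gap 0.04), with TNRC6A also below. A second AGO1 probe set was below (-0.64), and another past the filter overlapped at -0.02. Of the other TNRC6B probe sets, those at -0.82 and -0.72 were below, and those at -0.51, -0.37, -0.64 and -0.50 overlapped. XPO5, DROSHA and TSN were above by gaps of 0.13, 0.03 and 0.09. The other XPO5 probe sets past the filter overlapped, at 0.28 and 0.13. Of the other TSN probe sets 1 stood above (0.36) and 1 just below (-0.12).

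Counts of the metabolic lists stand beside 11.0% above and 11.2% below over all genes tested. Cholesterol genes had 7.41% on each side. Hypoxia and glycolysis genes had 8.33% above and 0% below, and respiratory chain genes 12.1% above and 6.06% below. Of 27 cholesterol genes, 2 stood above (EBP and NSDHL, gaps 0.04 and 0.02) and 2 below. TM7SF2, a sterol reductase, stood at 8.42 and 8.47 with scrambled siRNA, 7.88 and 7.87 with VEGF-C siRNA and 6.97 and 7.52 with NRP-2 siRNA, and FASN, fatty acid synthase, was below by a gap of 0.17. Of 36 hypoxia and glycolysis genes, 3 stood above: the enolase ENO1 (gap 0.14), the glucose transporter SLC2A1 (gap 0.08) and LOX, lysyl oxidase (gap 0.01). None stood below, but the scrambled arrays differed, with list means of 10.75 and 11.11: without the second scrambled array 18 stood above, without the first VEGF-C siRNA array 9, and without the first scrambled array 8 stood below. Of 33 respiratory chain genes, 4 stood above and 2 below, CYC1, cytochrome c1, with the widest gap of 0.21. In the same list COX4I1 (0.14) and UQCRB (-0.22) changed sign, to -0.14 and 0.10, when their probe sets past the filter were averaged. For UQCRB the dimmest of these stood above at 0.95, while the others were at -0.22, -0.17 and -0.17.

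**Figure D4:**
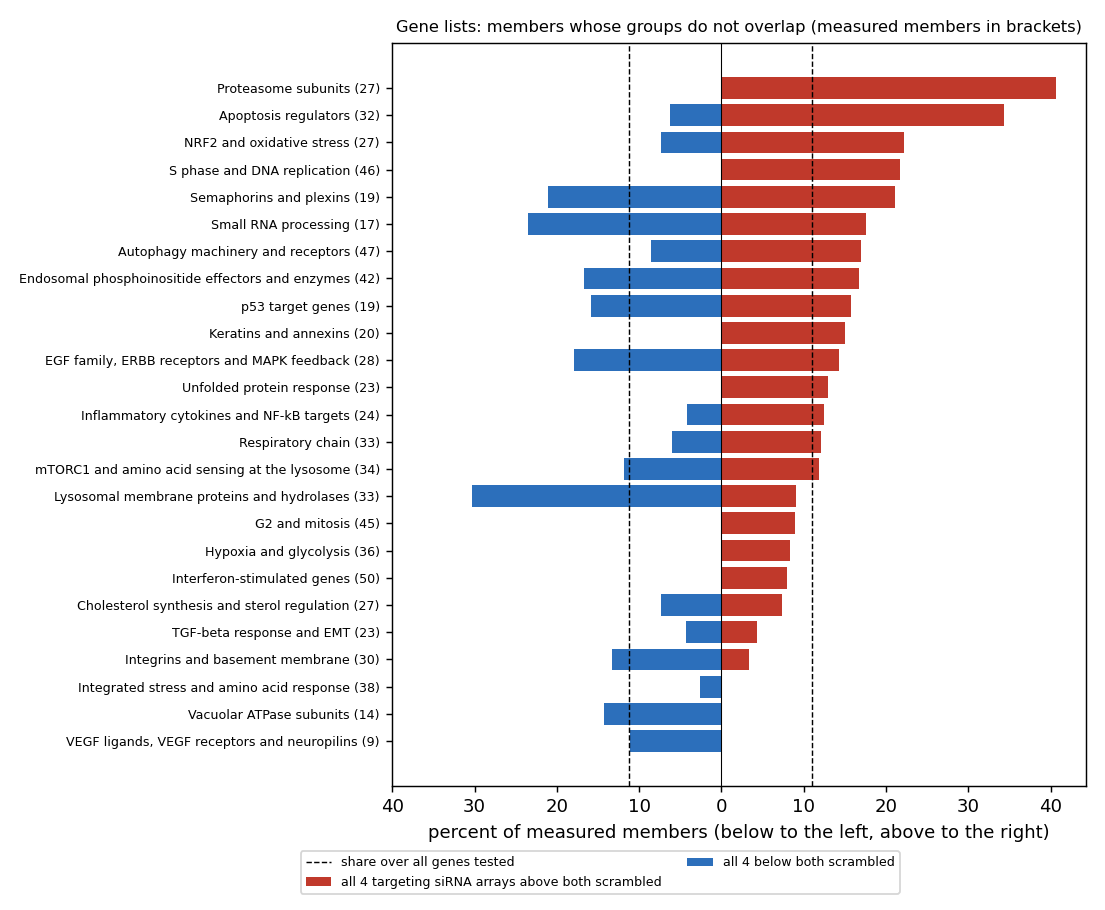
Percent of the measured members of each gene list (rows, number measured in brackets) whose 4 targeting siRNA arrays all lay above both scrambled arrays (red, to the right) or below both (blue, to the left); dashed lines mark 11.0% above and 11.2% below over all genes tested. Proteasome subunits reach 40.7% above, and lysosomal membrane proteins and hydrolases reach 30.3% below.

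The difference between the siRNAs was tested in the same fit over all genes. No gene was called between NRP-2 and VEGF-C siRNA (0 of 11131, 0%; lowest limma adjusted p = 0.098), with 2026 genes (18.2%) at an unadjusted p under 0.05. Among the genes above, 87 (7.11%) had such an unadjusted p, and among those below, 146 (11.7%). Because the rule asks both siRNAs to lie on the same side of scrambled, it also limits how far they can differ, so these shares are a description shaped by the choice of genes. The siRNA difference of WDFY1 was 0.22 (95% confidence interval -0.23 to 0.66), which leaves room for a larger value with either siRNA. That of LAMP2 was 0.45 (-0.01 to 0.92), an interval that includes 0 and lies mostly toward higher values with NRP-2 siRNA. For GEMIN5 the interval ran from -0.38 to 0.30, for FBXL12 from -0.21 to 0.52 and for MTMR6 from -0.33 to 0.38. The intervals of TRHDE (0.89, 0.59 to 1.19, adjusted p = 0.098) and CCND2 (-0.93, -1.65 to -0.21, adjusted p = 0.200) lay on 1 side of 0, higher and lower with NRP-2 siRNA, without passing the adjusted threshold. Of the 124 described genes that met the rule, 15 had such an interval with limits rounded as here, 7 above and 8 below. Beside TRHDE, those higher with NRP-2 siRNA were DICER1 (1.80, 1.00 to 2.60, adjusted p = 0.118), SEMA6D (0.61, 0.28 to 0.95), ZMAT3 and NSDHL. Beside CCND2, those lower with it were EPG5, KRT75 (-0.71, -1.03 to -0.38, adjusted p = 0.120), EGF (-0.76, -1.22 to -0.30), PIK3R4, RRAGC, GSR, TM7SF2, ID1 and TMPRSS2. TBC1D7, higher with NRP-2 siRNA (0.50, limma's unadjusted p = 0.049), had a lower limit that rounded to 0 and is not among these 15. Across the 126 genes chosen for description, the adjusted p of this difference ran from 0.098 to 0.988. A p that misses the threshold does not show that the siRNAs act alike.

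**Figure D5:**
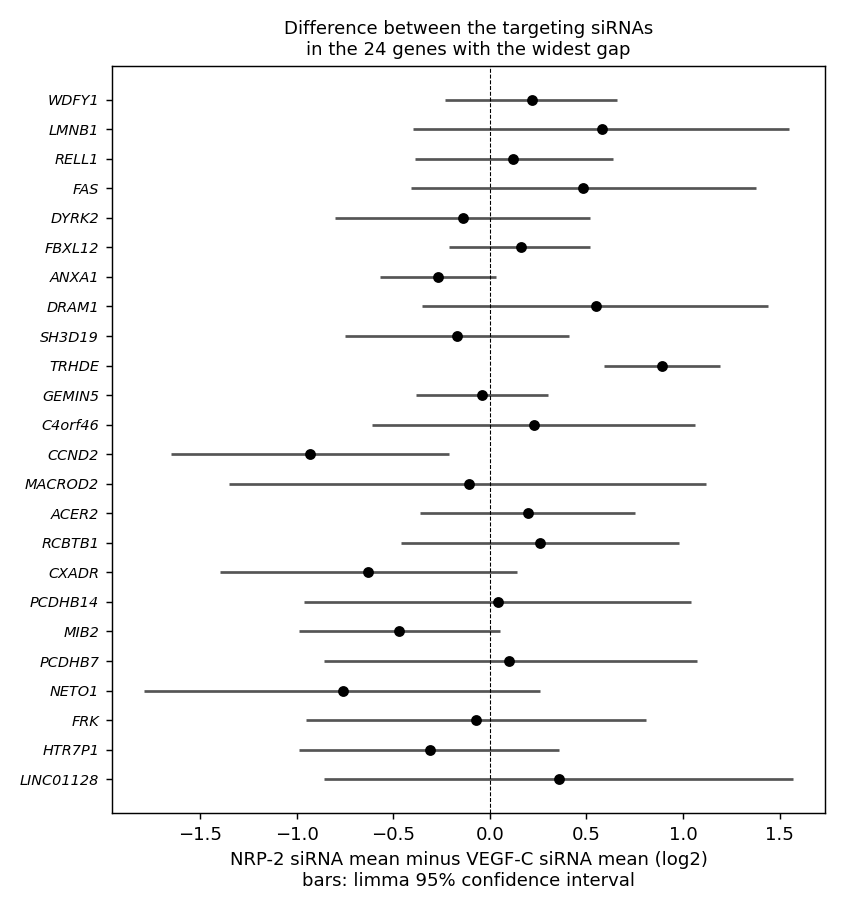
NRP-2 siRNA mean minus VEGF-C siRNA mean (log2, horizontal axis) for the 24 genes with the widest gaps (rows), with 2 arrays per group; points are differences and bars are limma's 95% confidence intervals. Of these genes TRHDE and CCND2 have intervals that do not cross 0.

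The labelled cell type was checked on its markers. All 10 epithelial markers were past the filter, led by EPCAM at 14.65, KRT19 at 14.17 and CDH1 at 14.04, and their summed level ran from 16.69 to 16.82 on the scrambled arrays and from 16.54 to 16.87 on the targeting siRNA arrays. Of the luminal prostate markers, 5 of the 10 named on the array were past the filter, HOXB13 (10.29), STEAP2 (9.99) and TMPRSS2 (8.51) among them, while KLK2 and FOLH1 were at 2.45 and 2.15; their summed level was 11.65 to 12.01 with scrambled and 11.32 to 11.93 with targeting siRNAs. TMPRSS2, a serine protease regulated by androgen, was below, at 9.18 and 9.25, then 8.66 and 8.67, then 7.02 and 8.28. A second TMPRSS2 probe set past the filter overlapped at -0.22. Fibroblast and stromal markers had 3 of 10 past the filter, and their summed level was lower with the targeting siRNAs, 10.09 to 10.77 beside 10.96 to 11.06. This followed COL1A1, a collagen chain, which was below with a difference of -0.77 (SE 0.21) on its brightest probe set and 0.24, overlapping, on the other past the filter, while PDGFRB (2.11) and FAP (2.33) were near the floor. Endothelial and immune markers had 1 gene each past the filter, PECAM1 (9.83) and LYZ (5.69), with VWF at 1.99, CDH5 at 2.40, PTPRC at 3.21 and CD14 at 1.82. Summed endothelial markers ran from 9.51 to 10.88 on the scrambled arrays and from 9.29 to 10.97 on the others, and summed immune markers from 6.46 to 6.88 and from 6.23 to 7.79. The part of other cell types in the results was not tested.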

How the data were processed

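Each array's table holds log2 expression values, 1 for each probe set, as the authors deposited them; the submitters' processing notes name Partek and GCRMA, and their versions and settings are not given here. GCRMA subtracts a background estimated from probe sequence, brings the arrays to a common distribution and combines the probes, which can shrink differences of dim genes. Scanner files were not used here.

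The array has 54675 probe sets, of which 62 were controls; the platform annotation gave 1 gene to 41091, several to 1801 and none to 11721, 19775 genes in all, and updating symbols through Entrez identifiers altered 0. A probe set needed a single gene and a mean over the 6 arrays of log2 4 or more (19946 passed), and the brightest one represented each of 11131 genes. limma 3.58.1 (R 4.3.3) was fitted to 3 groups (lmFit, eBayes; 3 residual degrees of freedom; two-sided; Benjamini-Hochberg over all genes; threshold 0.05), after the procedure had been tested on simulated data. The number of arrays limits the precision.

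The members and the 30 lists (892 genes, 749 tested) were chosen with earlier results of these data known. Genes described with values are VEGFC, NRP2, LAMP2 and WDFY1, any called gene, the 12 widest gaps per side, and up to 3 members per list and side with the widest gaps; other members named, among them GAA and MCOLN1, were chosen after their values were seen. Alternatives altered the filter, the probe sets used for a gene, the scaling, the model, the gap and the arrays.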

Additional observations from a re-analysis of the deposited data

Results flagged for a closer look

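NRP2 was higher than scrambled with VEGF-C siRNA on both arrays and lower with NRP-2 siRNA on both, a difference between the siRNAs of -2.65 (95% confidence interval -3.32 to -1.99, limma's adjusted p = 0.098), which does not pass the threshold.

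In 9 of the 126 genes described, 1 targeting siRNA array stood far from the other 3 by Dixon's criterion (0.829 for 4 values). Chance flags about 1 in 20 groups, and the 4 values come from 2 siRNAs. In 6 of the 9 it was the first NRP-2 siRNA array: DRAM1 at 10.63 with the others at 9.54 to 9.55, HTR7P1 at 4.48 (5.03 to 5.13), GLA at 10.57 (9.55 to 9.66), NFKBIA at 12.05 (11.44 to 11.45), PRDX1 at 13.99 (13.76 on all others) and ERBB3 at 10.33 (11.49 to 11.54). NFKB1 was high on the first VEGF-C siRNA array at 9.05 (8.74 to 8.78) and LOX on the second at 5.99 (5.41 to 5.50). SPRY1 was high on the second NRP-2 siRNA array at 10.94 (10.53 to 10.55).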

How the results depend on the processing

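With limma, 0 genes were called in the pooled comparison under all 14 alternatives. The lowest adjusted p ran from 0.1 without the second NRP-2 siRNA array to 0.916 without the second scrambled array, and the genes at an unadjusted p under 0.05 from 594 to 2505. Leaving out an array makes non-overlap easier by construction: genes above then numbered 1486 to 2462 and genes below 1478 to 2394, with more than 1.5 times the main count above without the first (2462) or second (2027) scrambled array or the second NRP-2 siRNA array (1961), and likewise below (2394, 2009 and 1946). Without a filter on low values 1448 of 19775 genes stood above and 2279 below, and 1 gene, NWD2, named after its value was seen, passed the threshold between the siRNAs (limma's adjusted p = 0.0374); 0 were called there under the other alternatives with that contrast. A required gap of 0.5 left 52 above and 41 below, and a gap of 1 left 1 and 2. Equal array medians gave 1408 and 1059, of which 1166 and 1032 were shared with the main counts, and averaged probe sets shared 989 and 1006. Of 1754 alternative values of the 126 genes, 2 changed sign, COX4I1 (-0.14) and UQCRB (0.10), both with averaged probe sets. Neither was called before or after. Most of these values could not change sign. For genes that met the rule, leaving out an array keeps the targeting siRNA arrays on the same side of scrambled. The altered filters and models keep the mean difference of the brightest probe set. Only averaging probe sets and rescaling the arrays could change the sign for such genes.

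The groups share replicate numbers 1 and 2, which the labels do not tie to a culture or a day. Deviations of same-numbered arrays correlated at 0.11 (scrambled and VEGF-C), 0.58 (scrambled and NRP-2) and 0.12 (VEGF-C and NRP-2) across genes. The mean of the G2 and mitosis list was higher on both targeting siRNA arrays than on the scrambled array of the same number, 10.92 and 10.81 beside 10.07 for number 1 and 10.21 and 9.73 beside 8.42 for number 2. With the replicate block limma called 0 genes (lowest adjusted p = 0.143, 1821 unadjusted), and 0 between the siRNAs. With 2 arrays per group the spread is poorly known, and signal over background could not be assessed from these values.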

Other observations

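Some families outside the lists were looked up after their values were seen, so their counts are descriptions chosen for being unusual, beside 11.0% above and 11.2% below over all genes tested. Of 17 measured replication-dependent histone genes, none stood above and 9 stood below both scrambled arrays, with a median difference of -0.37. H3C6, a histone H3 gene, stood at 8.53 and 8.72 on the scrambled arrays, 7.42 and 7.86 with VEGF-C siRNA and 6.10 and 7.89 with NRP-2 siRNA. H2BC21, a histone H2B gene, stood at 10.86 and 10.77, then 10.01 and 10.19, then 8.56 and 9.70. The brightest, H2BC12, stood at 14.94 and 14.81, then 14.53 and 14.61, then 14.44 and 14.69. These distances were 0.64, 0.58 and 0.12, on the opposite side from the S phase genes of the report. Whether these values follow total histone RNA was not tested. The mean over the 17 genes was 9.87 and 9.88, then 9.45 and 9.70, then 9.05 and 9.55. Histone genes are near-identical copies, so probe sets may read several of them, and their count is uncertain; over the scaling alternatives 8 or 9 stood below.

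Mitochondrial ribosomal proteins stood above in 20 of 75 (26.7%) and below in 2, MRPL40 and MRPS9, with a median difference of 0.12. Individual distances were small: MRPS22 had the widest gap at 0.23, with 10.46 and 10.62 on the scrambled arrays, 10.84 and 10.87 with VEGF-C siRNA and 11.01 and 10.84 with NRP-2 siRNA. With the mean of all named probe sets past the filter 16 stood above and 6 below, and with arrays shifted to equal medians 25 and 0. Leaving out an array gave 20 to 37 above.

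Ubiquitin-specific proteases, which remove ubiquitin from proteins, stood below in 11 of 39 (28.2%) and above in 1, USP1. USP12 stood at 9.53 and 9.51, then 8.87 and 8.84, then 7.47 and 8.47. USP46 stood at 10.88 and 10.76, then 10.06 and 9.32, then 10.17 and 10.40. Averaging the probe sets gave 8 below and 3 above, and leaving out an array gave 11 to 18 below. Of 5 measured beta protocadherins, 4 stood below: PCDHB7, PCDHB14, PCDHB2 (difference -0.86) and PCDHB3 (-0.25). Integrator subunits had 6 of 15 above and 2 below, and nucleoporins 7 of 21 above and 3 below. Ordered by mean level in 3 equal classes, 12.6% of the brightest class stood above and 11.6% below, beside 8.46% and 10.7% of the dimmest.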
